A study of Mus musculus with 12 samples.

Results

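The astrocyte genes followed here were Gfap, Aqp4, Slc1a2, Slc1a3, Aldh1l1, Gja1, S100b, Aldoc, Vim and Gdf10, 10 of the 55487 genes in the counts table. They were taken by symbol, as genes that mark astrocytes or report on their reactivity. Livers and brains of 6 mice were sequenced, 3 labelled KO (mice A, C and F) and 3 labelled WT (mice B, D and E), which gave 12 libraries in 4 groups of 3. KO mice lack Mettl5, which encodes the methyltransferase of an adenosine in 18S rRNA, through loss of exon 2 in the whole body. The floxed exon was made with CRISPR-Cas9 in C57bl/6 x 129S6 hybrid embryonic stem cells, the line was backcrossed to B6, and the exon was removed with the CMV-cre transgene of B6.C-Tg(CMV-cre)1Cgn/J. The labels call the controls WT, whereas the study's text speaks of Mettl5+/- controls for its RNA-seq, so WT here stands for the libraries labelled WT. Age, sex, litter, collection batch and the way the brains were dissected are not given for each mouse in the labels, and the study used both sexes at young and adult ages.

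Astrocytes are the glial cells that clear glutamate and potassium from around synapses, carry water and ions at the blood vessels and supply neurons with metabolites. They are coupled to each other by gap junctions, and after injury they become reactive and make more intermediate filaments, above all GFAP and vimentin. Astrocytes also differ by region: the radial astrocytes of the cerebellar cortex, called Bergmann glia, carry much GLAST and express Gdf10 and Vim. The RNA came from bulk tissue, so fewer cells of a type, less RNA per cell and a difference in the regions taken with the brain cannot be told apart in any value below.

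Mettl5 was read first as the targeted gene. It was at 9.09, 5.87 and 5.02 CPM (normalised read count, scaled to the library size by TMM) in the WT brains and at 3.33, 3.96 and 3.82 CPM in the KO brains, with no overlap. In liver it was at 14.9, 8.13 and 8.35 CPM in WT and at 3.85, 3.64 and 4.07 CPM in KO, again with no overlap. Its log2 fold changes of -0.84 (SE 0.27) and -1.44 (SE 0.27) missed the threshold over all genes (adjusted p 0.373 and 0.383, edgeR with Benjamini-Hochberg adjustment). These calls depended on the fit: in liver the adjusted p was 0.00189 in DESeq2, 4.29e-06 with no filter on low counts, 0.071 with a Y-linked covariate and 0.0848 without mouse D, and in brain it was 0.0936 with no filter. Library totals ran from 14403309 to 18365114 counts in brain and from 16145754 to 21623180 in liver. Transcripts of the mitochondrial genome took 9.33% to 19.9% of the counts in the WT brains and 23.3% to 33.7% in the KO brains. In liver they took 13.2% to 19.2% in WT and 9.56% to 11.2% in KO, so that KO lay wholly above WT in brain and wholly below it in liver. Mice E (WT) and F (KO) lacked Y-linked transcripts.

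The 250 bases upstream of the RefSeq starts (GRCm38.p6) of Vim, S100b and Gdf10 are printed, Vim and S100b because their KO and WT brain libraries did not overlap at an unadjusted p under 0.05, and Gdf10 as the Bergmann glia gene. None of these genes was called in brain by edgeR with its filter on low counts. Capitals mark matches on either strand to the TATA box (TATAAA), the CCAAT box (CCAAT), the GC box (GGGCGG), the STAT motif (TTCNNNGAA), the NFI half-site (TTGGCA) or the AP-1 motif (TGANTCA). The Vim window lies at chr2:13574061-13574310, the S100b window at chr10:76253586-76253835 and the Gdf10 window at chr14:33923337-33923586, all on the plus strand.
Vim: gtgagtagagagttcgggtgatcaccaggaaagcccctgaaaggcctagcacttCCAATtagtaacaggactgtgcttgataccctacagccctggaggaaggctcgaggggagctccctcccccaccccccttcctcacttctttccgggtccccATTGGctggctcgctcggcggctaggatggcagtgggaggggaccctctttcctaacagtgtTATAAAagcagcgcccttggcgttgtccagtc
S100b: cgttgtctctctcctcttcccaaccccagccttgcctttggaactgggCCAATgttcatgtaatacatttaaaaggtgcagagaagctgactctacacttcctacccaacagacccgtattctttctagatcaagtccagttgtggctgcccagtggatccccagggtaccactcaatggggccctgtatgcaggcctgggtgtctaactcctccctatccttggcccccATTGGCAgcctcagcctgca
Gdf10: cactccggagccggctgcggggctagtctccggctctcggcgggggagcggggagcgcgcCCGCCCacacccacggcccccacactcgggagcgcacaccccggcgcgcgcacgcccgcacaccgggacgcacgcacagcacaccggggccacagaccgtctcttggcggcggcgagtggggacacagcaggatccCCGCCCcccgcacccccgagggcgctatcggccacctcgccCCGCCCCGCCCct
The Vim window held a TATAAA from position -32 to -27 before the start and a CCAAT on each strand. The S100b window held no TATAAA and also a CCAAT on each strand, the one nearer the start overlapping a TTGGCA. The Gdf10 window held 4 GGGCGG on the minus strand, 35 CpG pairs and 78.8% G and C, against 8 and 2 CpG pairs in the Vim and S100b windows. The promoter table matched 9 of the 10 genes with 10 windows, of which 4 held CCAAT (33.8% of 32851 mouse promoters did), 4 GGGCGG (32.7%), 2 TATAAA (12.4%), 2 TTCNNNGAA (7.02%), 2 TTGGCA (12.3%) and 1 TGANTCA (6.75%). The gene model counted for Vim begins upstream of the RefSeq start, so its window lies within that model. A match is a description of the letters and not of a bound site.

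To see how far the 10 genes mark brain in these libraries, the WT brains were compared with the WT livers over 18944 genes, with CPM scaled over all 12 libraries for this comparison and within 1 tissue elsewhere. Of the 10 genes, 8 were called higher in brain at an adjusted p under 0.1 (43.6% of all genes tested were called higher), 1 was called lower (34.8%) and 1, Vim, was not called. S100b, which encodes a calcium-binding protein, had 1 count in each WT liver library, so its level was at least 485-fold higher in brain against a floor of 3 counts. Slc1a3 and Gfap followed, at log2 fold changes of 8.31 (SE 0.39, edgeR adjusted p 1.73e-10) and 7.86 (SE 0.39, edgeR adjusted p 2.52e-10). Aldoc (5.49), Aqp4 (4.87), Gja1 (4.18) and Slc1a2 (3.23) were also higher in brain. Gdf10 was at 1.38 (SE 0.53, edgeR adjusted p 0.0323), a call that rested on mouse D, since without it the value was 0.83 (edgeR adjusted p 0.236), and with no filter on low counts the adjusted p was 0.105.

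The exception was Aldh1l1, which encodes 10-formyltetrahydrofolate dehydrogenase, a folate enzyme of astrocytes and of hepatocytes. It was at 1645, 1424 and 1993 CPM in the WT livers and at 26.6, 44.4 and 34 CPM in the WT brains, 48.2-fold lower in brain (edgeR adjusted p 4.32e-10). In these tissues Aldh1l1 was thus no marker of brain over liver. Vim, which is expressed in many mesenchymal and vascular cells, was at 31.4, 27.6 and 50.7 CPM in the WT livers against 43.1, 79.1 and 41.4 CPM in the WT brains, which is 0.58 on the log2 scale (SE 0.34, edgeR adjusted p 0.144) and 0.044 without mouse D. The call of Vim depended on single libraries and on the scaling, with edgeR adjusted p of 0.099 without mouse C, 0.0306 without mouse E and 0.0854 with RLE size factors, and it was 0.079 in DESeq2.

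Levels between genes were compared per kb of exon, scaled within brain. In the WT brains Aldoc was at 224 ± 62.3 CPM per kb (SD, n = 3) and Slc1a2 at 168 ± 33.8, and these did not differ beyond their spread. S100b followed at 99.2 ± 20.2, its libraries apart from those of its neighbours in this order, and then Gfap at 57.5 ± 15.9 and Slc1a3 at 51.4 ± 7.90, whose libraries overlapped. Aqp4 stood apart from both at 38.5 ± 3.71. Gja1 at 17.8 ± 3.08, Vim at 14.6 ± 5.6, Aldh1l1 at 9.82 ± 2.46 and Gdf10 at 4.94 ± 3.02 came last, and the libraries of each overlapped those of the next. The genes of the glycolytic enzyme and of the glutamate transporter were thus the most abundant per kb.

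**Figure D1:**
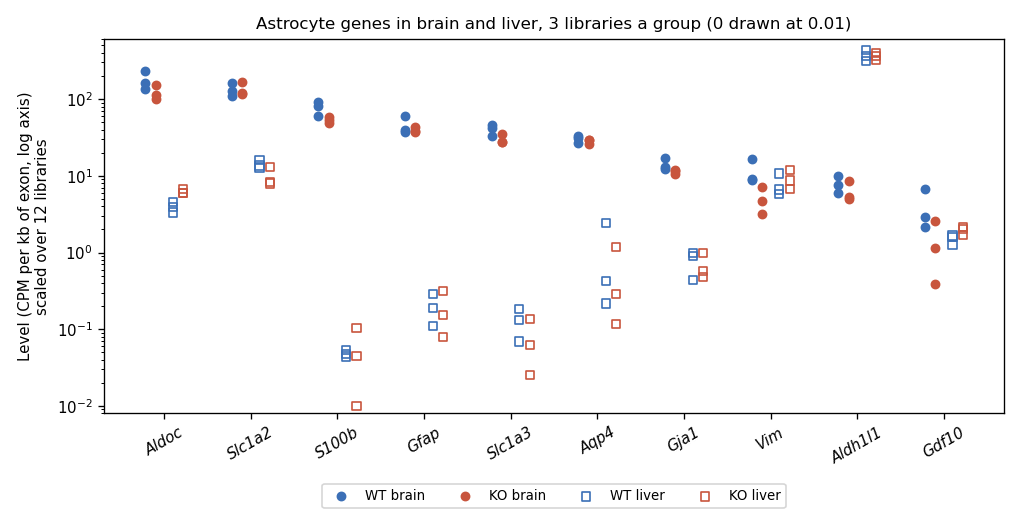
Level of each astrocyte gene in CPM per kb of exon, scaled over all 12 libraries, on a log axis, 1 point per library, filled circles for brain and open squares for liver, blue for WT and red for KO; genes are ordered by their WT brain mean. Aldh1l1 is the one gene whose liver points all lie above its brain points, S100b in liver is at or below 2 counts per library, and the liver points of Vim and Gdf10 overlap their brain points.

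Whether astrocyte transcripts differ when Mettl5 is lost was asked in brain. All 10 genes passed the filter on low counts, and 0 of 10 were called at the threshold of 0.1 on the edgeR adjusted p over 17188 genes, where 0.064% of all genes were called. Of the 10, 9 had a log2 fold change under 0, as had 50.2% of all genes tested, and the median of the 10 was -0.36, against -0.0016 over all genes. Lower at an unadjusted p under 0.05 (5.01% of all genes) were 5 members, Slc1a3, S100b, Aldoc, Vim and Gdf10. For 3, Gja1, S100b and Vim, the KO libraries all lay below the WT libraries (7.94% of all genes). The signs are not independent, since the 10 genes share libraries, and no member passed the threshold over all genes.

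Gfap and Vim encode the intermediate filaments of astrocytes. Gfap (ENSMUSG00000020932.14, chromosome 11 from 102887336 to 102900912, minus strand, mm10) was at 199, 320 and 209 CPM in the WT brains of mice B, D and E and at 204, 230 and 201 CPM in the KO brains of mice A, C and F. The groups overlapped fully apart from the high WT library of mouse D. Its log2 fold change was -0.20 (SE 0.19, 95% interval -0.63 to 0.23, edgeR adjusted p 0.685), and without mouse D it was 0.047, so the direction rested on that library. Vim (ENSMUSG00000026728.9, chromosome 2 from 13573927 to 13582826, plus strand) was at 55, 99.7 and 52.5 CPM in WT and at 19.3, 43.4 and 28.5 CPM in KO, with no overlap. Its mean was 69.1 ± 26.6 CPM in WT and 30.4 ± 12.1 CPM in KO (SD, n = 3). The log2 fold change was -1.18 (SE 0.34, 95% interval -1.95 to -0.41, edgeR adjusted p 0.355). The call depended on the test: Vim was the single member called with DESeq2 (adjusted p 0.0219), which called 1.52% of the genes it tested, and edgeR with no filter on low counts gave an adjusted p of 0.000186. The study called Vim in these libraries too, so the value is not independent of that call.

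Slc1a2 and Slc1a3 encode GLT-1 and GLAST, the transporters that take up glutamate. Slc1a2 (ENSMUSG00000005089.15, chromosome 2 from 102658659 to 102790784, plus strand) was at 1821, 2111 and 2692 CPM in WT and at 1926, 2769 and 2021 CPM in KO. The groups overlapped, and the highest library of either was at about the same level. Its log2 fold change was 0.02 (SE 0.21, 95% interval -0.44 to 0.48, edgeR adjusted p 0.977), with a sign that changed without mouse B, C or D. Slc1a3 (ENSMUSG00000005360.14, chromosome 15 from 8634124 to 8710764, minus strand) was at 365, 497 and 454 CPM in WT and at 300, 383 and 303 CPM in KO. The KO library of mouse C lay above the WT library of mouse B, and the other KO libraries lay below every WT library. On the log2 scale Slc1a3 differed by -0.42 (SE 0.17, 95% interval -0.79 to -0.042, edgeR adjusted p 0.415).

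Aqp4 encodes the water channel of the astrocyte endfeet at blood vessels, and Gja1 encodes connexin 43, the main gap junction protein of astrocytes. Aqp4 was at 259, 247 and 214 CPM in WT and at 205, 233 and 234 CPM in KO, which overlapped, with a log2 fold change of -0.10 (SE 0.14, 95% interval -0.41 to 0.21, edgeR adjusted p 0.78) that ran from -0.17 to -0.039 when single mice were left out. It varied least of the 10 genes, by 1.26-fold between the highest and the lowest brain library. Gja1 (ENSMUSG00000050953.10, chromosome 10 from 56377330 to 56402513, plus strand) was at 173, 218 and 157 CPM in WT and at 149, 155 and 139 CPM in KO. The KO libraries lay below the WT libraries, but the gap between mouse E and mouse C was small. The log2 fold change of Gja1 was -0.31 (SE 0.15, 95% interval -0.65 to 0.031, edgeR adjusted p 0.475), and it was -0.17 without mouse D.

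Aldh1l1 and Aldoc encode metabolic enzymes, the folate dehydrogenase named above and aldolase C of glycolysis, which Purkinje neurons of the cerebellum also make. Aldh1l1 (ENSMUSG00000030088.15, chromosome 6 from 90486427 to 90600203, plus strand) was at 33.9, 56 and 43.2 CPM in WT and at 29, 49.1 and 30.1 CPM in KO, with overlap. Its log2 fold change was -0.30 (SE 0.25, 95% interval -0.85 to 0.26, edgeR adjusted p 0.642), and it moved to -0.59 without mouse C and to -0.10 without mouse D. Aldoc (ENSMUSG00000017390.15, chromosome 11 from 78322968 to 78327781, plus strand) was at 564, 956 and 669 CPM in WT and at 470, 637 and 414 CPM in KO. The KO library of mouse C lay between the WT libraries, while those of mice A and F lay below all of them. The log2 fold change was -0.53 (SE 0.23, 95% interval -1.04 to -0.011, edgeR adjusted p 0.447), and without mouse D it was -0.29 (edgeR adjusted p 0.99). With no filter on low counts the edgeR adjusted p of Aldoc was 0.0328, and 3 members were then called (3.15% of all genes in that fit).

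S100b encodes a calcium-binding protein that astrocytes also release, and Gdf10 encodes a secreted factor of the TGF-beta family. S100b (ENSMUSG00000033208.7, chromosome 10 from 76253853 to 76261159, plus strand) was at 153, 174 and 115 CPM in WT and at 102, 110 and 91.9 CPM in KO. All 3 KO libraries lay below the lowest WT library, that of mouse E. The log2 fold change of S100b was -0.54 (SE 0.17, 95% interval -0.92 to -0.16, edgeR adjusted p 0.365), and with no filter on low counts its adjusted p was 0.0304. Gdf10 (ENSMUSG00000021943.7, chromosome 14 from 33923587 to 33937983, plus strand) was at 14.3, 43.7 and 19.2 CPM in WT and at 2.6, 16.8 and 7.71 CPM in KO. Its log2 fold change came with the largest error of the 10 genes, -1.51 (SE 0.62, 95% interval -2.94 to -0.075, edgeR adjusted p 0.438), and it was -2.30 without mouse C and -0.89 without mouse D. Its groups overlapped, since the KO library of mouse C lay above the WT library of mouse B.

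**Figure D2:**
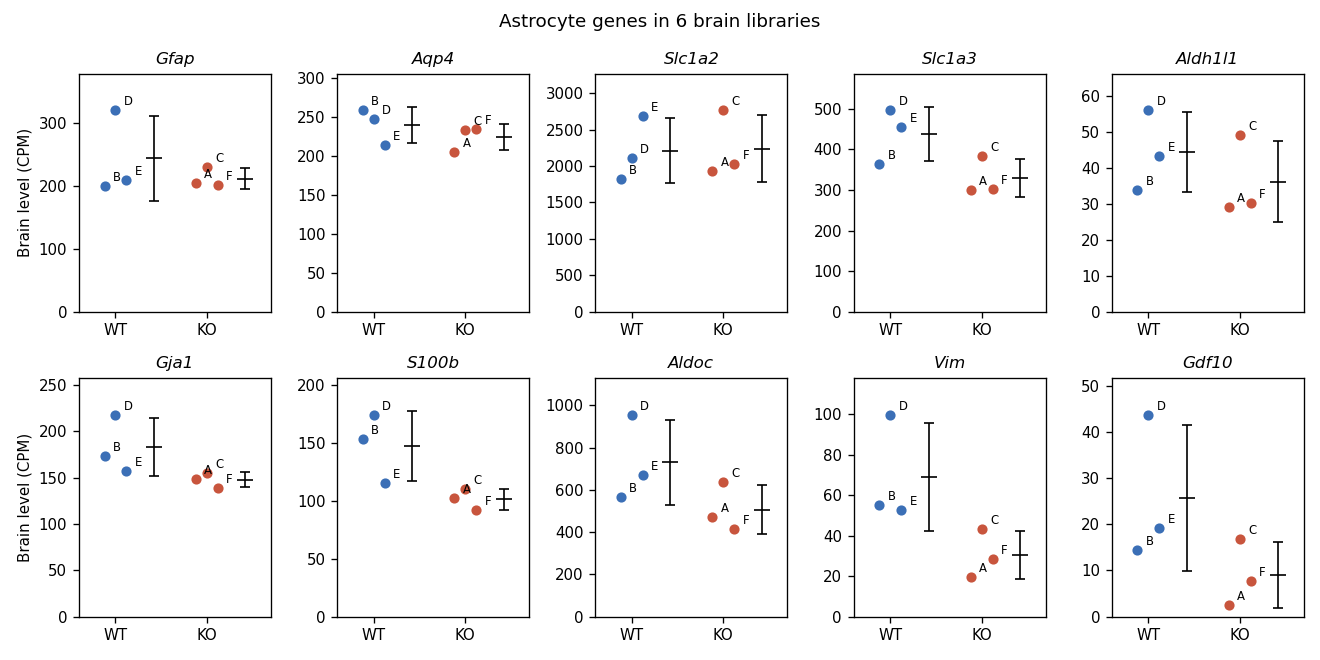
Level of each astrocyte gene in CPM in the 6 brain libraries, blue for WT and red for KO, 1 point per mouse with its letter; the black bar beside each group is the mean with its SD (n = 3). Mouse D is the highest library for 8 of the 10 genes, and the KO points lie wholly below the WT points for Gja1, S100b and Vim.

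The same libraries tended to be highest or lowest across the genes. Mouse D was the highest of the 6 brain libraries for 8 of 10 genes, mouse A the lowest for 5 and mouse F for 3. Among the KO brains, mouse C was the highest for 9 of 10. The 10 genes share each library and its scaling and are no replicates of each other. Leaving out mouse D brought their median log2 fold change to -0.23 and leaving out mouse C to -0.57, a move of over 1.5 times in either case, and 0 of 10 were called without any 1 of the mice. With mitochondrial transcripts left out before scaling, the median was -0.36.

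Other genes of astrocyte identity were read from a list of 30, which holds genes of potassium and bicarbonate handling, transcription factors and secreted proteins. All 30 passed the filter, 27 were lower and 3 higher in KO, and their median was -0.25 on the log2 scale. EdgeR and DESeq2 called 0 of the 30, and edgeR with no filter on low counts called 3, Slc4a4 and Gpr37l1 lower and Dio2 higher, where that fit called 3.15% of all genes. For 0 of the 30 were the groups without overlap, where 7.94% of all genes were so with KO lower and 8.41% with KO higher. Slc4a4, the bicarbonate cotransporter, was at -0.55 on the log2 scale (SE 0.30, edgeR adjusted p 0.521), Mlc1, a membrane protein of the endfeet, -0.14 (SE 0.17), and Kcnj10, the potassium channel Kir4.1, -0.27 (SE 0.50). At an unadjusted p under 0.05, 1 of the 30 was lower (5.01% of all genes), Gpr37l1, a receptor of astrocytes, at -0.55 (SE 0.23). Also at such a p, 1 was higher (5.96%), Dio2, the deiodinase that activates thyroid hormone, at 0.63 (SE 0.24). Both were named after their values were seen, and both counts are near the shares over all genes. The summed level of the 30 genes was at 4915, 7770 and 5904 CPM in the WT brains and at 4685, 6317 and 4506 CPM in the KO brains, which overlapped.

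Reactive astrocyte genes were read from a list of 34, of which 26 passed the filter. In KO, 10 were higher and 16 lower, and the median was -0.10. EdgeR and DESeq2 called 0 of the 26, and edgeR with no filter on low counts called 1 of the 32 it tested (3.15% of all genes), B3gnt5, at an adjusted p of 0.00165. Of the 26, 2 were higher (5.96% of all genes tested) and 2 lower (5.01%) at an unadjusted p under 0.05. The higher ones were Ptgs2, which encodes cyclooxygenase-2 and is also made by neurons, at 4.12, 4.01 and 5.33 CPM in WT and 9.27, 7.05 and 5.73 CPM in KO, and Srgn, a proteoglycan of blood-derived cells, at a log2 fold change of 0.62 (SE 0.25). The KO libraries lay wholly above the WT libraries for 2 of the 26, Ptgs2 and Srgn (8.41% of all genes), and wholly below them for 3, B3gnt5 among them (7.94%). The lower ones were B3gnt5, a glycosyltransferase, at 6.64, 5.27 and 4.32 CPM in WT and 0.569, 2.45 and 2.9 CPM in KO, and Cd44, a hyaluronan receptor named after its value was seen, at -0.83 (SE 0.35). Serpina3n, a protease inhibitor of strongly reactive astrocytes, was at 5.35, 9.33 and 6.13 CPM in WT and 4.88, 6.91 and 4.42 CPM in KO. Lcn2, another gene of strong reactivity, had 0 counts in all 6 brain libraries.

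The genes that anchor AQP4 at the endfeet or build gap junctions were read from a list of 12, which shares Kcnj10 and Gjb6 with the list of 30. In KO, 3 were higher and 9 lower, and the median was -0.085. EdgeR and DESeq2 called 0 of the 12, and edgeR with no filter on low counts called 1 (3.15% of all genes), Dmd, at an adjusted p of 0.0017. Dmd, which encodes dystrophin and is shared with neurons, was at 154, 79.6 and 161 CPM in WT and at 261, 178 and 218 CPM in KO, without overlap and at 0.73 on the log2 scale (SE 0.26, edgeR adjusted p 0.395). Dtna, which encodes alpha-dystrobrevin, was at 146, 140 and 147 CPM in WT and at 125, 134 and 128 CPM in KO. The libraries of Dtna did not overlap either, although its log2 fold change was -0.16 (SE 0.12). Non-overlap thus held for 1 of 12 with KO higher (8.41% of all genes) and 1 with KO lower (7.94%), and 1, Dmd, was higher at an unadjusted p under 0.05 (5.96%), which is near the shares over all genes.

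**Figure D3:**
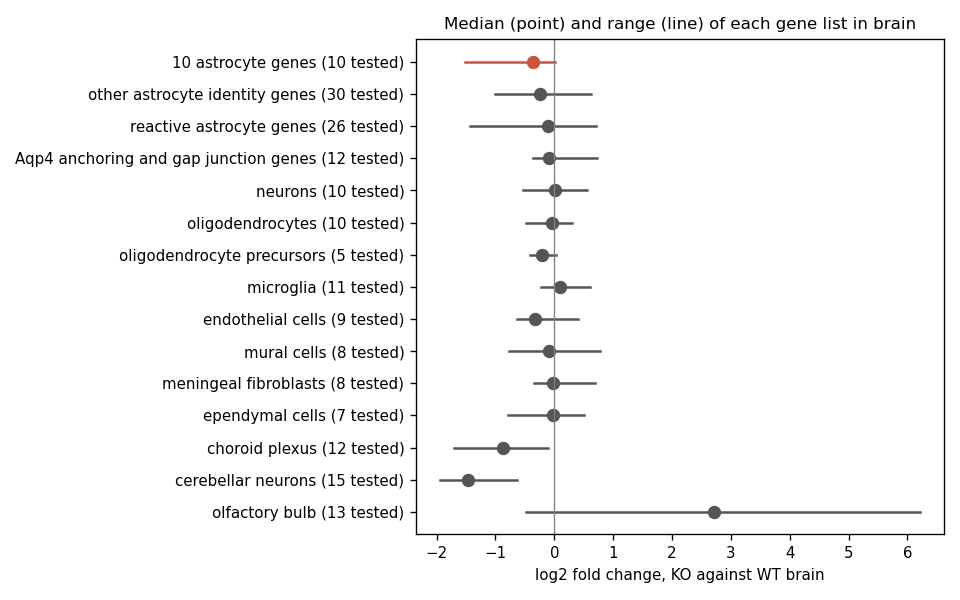
Log2 fold change of KO against WT brain for each gene list, the point at the median and the line from the lowest to the highest gene tested. The 10 astrocyte genes have a median of -0.36, most other cell type lists lie near 0, and the cerebellar neuron (-1.46), choroid plexus (-0.87) and olfactory bulb (2.72) lists lie farthest from it.

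Markers of other cells that the brain samples hold were read beside these genes. Lists of neurons, oligodendrocytes, microglia, mural cells, meningeal fibroblasts and ependymal cells had median log2 fold changes between -0.092 and 0.093, and endothelial cells and oligodendrocyte precursors had -0.32 and -0.20. The lists of 3 brain regions lay further from 0. All 15 cerebellar neuron genes were lower in KO, 13 at an unadjusted p under 0.05 and 15 with no overlap, where 5.01% and 7.94% of all genes were, and their median was -1.46. With its filter on low counts edgeR called 0 of the 15, while DESeq2 called 6 (1.52% of all genes in that fit), edgeR with no filter on low counts 7 (3.15%) and edgeR without mouse C 1 (0.13%), all lower. Their summed level was at 2724, 3732 and 2669 CPM in WT and at 961, 1926 and 1431 CPM in KO, with 0 of 15 genes at 0 counts in any brain library. Purkinje neuron genes among them were Ppp1r17 at -1.82 (SE 0.39), Calb1 at -0.73 (SE 0.17), Pcp2 at -1.94 (SE 0.63) and Car8 at -1.70 (SE 0.42).

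All 12 choroid plexus genes were lower too, 8 at an unadjusted p under 0.05 (5.01% of all genes) and 6 with no overlap (7.94%), and their median was -0.87. With its filter on low counts edgeR called 0 of the 12, while DESeq2 called 5 (1.52% of all genes in that fit) and edgeR with no filter 7 (3.15%), all lower. Their sum was at 591, 837 and 596 CPM in WT and at 359, 436 and 398 CPM in KO, with 0 of 12 genes at 0 counts. Among those with no overlap were Tmem72 at -1.71 (SE 0.30), Slc4a5 at -1.59 (SE 0.35), Clic6 at -0.88 (SE 0.22) and Ttr, the transthyretin gene, at -0.97 (SE 0.24). Folr1 at -0.22 (SE 0.30) and Kl at -0.98 (SE 0.37), which like Ttr stand first on the list, had libraries that overlapped. In the olfactory bulb list 12 of 13 genes were higher in KO, with a median of 2.72. Of these, 11 were higher at an unadjusted p under 0.05 (5.96% of all genes) and 9 with no overlap (8.41%). EdgeR called 6 higher (0.064% of all genes were called). The count called was 2 without mouse B (0.0169% of all genes in that fit), E (0.0114%) or F (0.0285%), 3 without mouse D (0.0228%) and 5 without mouse A (0.0338%). DESeq2 called 9 of the list higher (1.52% of all genes), and edgeR with no filter called 10 higher and 1 lower (3.15%), the lower one being Calb2, the calretinin gene, named after its value was seen. The list had a summed level from 138 to 257 CPM in WT and from 182 to 280 CPM in KO and 3 genes, S100a5, Tbx21 and Scgn, at 0 counts in at least 1 brain library. The medians of these lists lay further from 0 than that of the astrocyte genes, but the lists were chosen with earlier results of these data known.

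As a percentage of the WT mean, the cerebellar sum stood at 31.6%, 63.3% and 47% in the KO brains of mice A, C and F. Vim stood at 28%, 62.8% and 41.2% and Gdf10 at 10.1%, 65.1% and 30% in the same order of mice, so that mouse A was lowest and mouse C highest for all 3. The choroid plexus sum stood at 53.3%, 64.7% and 59%, also lowest in mouse A and highest in mouse C. S100b stood at 69.4%, 74.8% and 62.4% and Slc1a3 at 68.5%, 87.3% and 69.1%. The part that the cerebellar, choroid plexus or mitochondrial share had in the levels of the 10 genes was not tested.

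**Figure D4:**
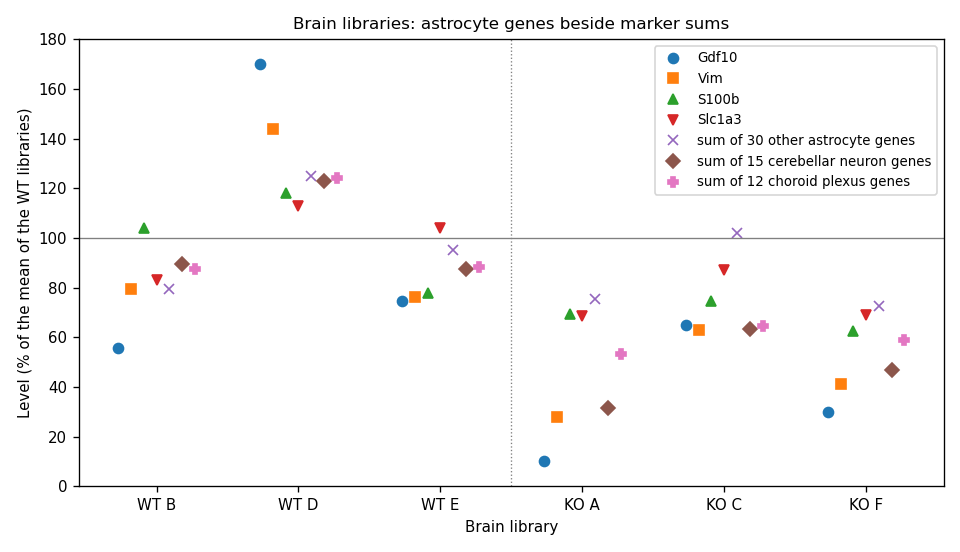
Level of 4 astrocyte genes and of 3 marker sums in each brain library as a percentage of the mean of the WT libraries; each column is 1 mouse, WT to the left of the dotted line and KO to the right, and points are offset sideways for legibility. In mouse A, Gdf10 (10.1%), Vim (28%) and the cerebellar sum (31.6%) are lowest, and in mouse C all 3 lie between 62.8% and 65.1%.

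Liver served as the background tissue for these genes. Of the 10, 9 passed the filter there, all but S100b, which had at most 2 counts in a library. Of the 9, 0 were called (edgeR, Benjamini-Hochberg over 14075 genes, where 0% of genes were called), 6 were lower and 3 higher in KO, and the median log2 fold change was -0.14. Of the 9, 1 was higher (2.76% of all genes) and 1 lower (4.57%) at an unadjusted p under 0.05. The KO libraries lay wholly above the WT libraries for 1 gene (6.5%) and wholly below them for 0 (6.44%).

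The higher gene was Aldoc, which was at 9.99, 12 and 8.69 CPM in the WT livers and at 15.4, 17.2 and 15.1 CPM in the KO livers. Its log2 fold change was 0.63 (SE 0.16, 95% interval 0.27 to 1.0, edgeR adjusted p 0.428), in the direction opposite to brain. The lower gene was Slc1a2, whose transporter hepatocytes around the central vein also make, at 132, 169 and 143 CPM in WT and 133, 81.5 and 85.3 CPM in KO. Here the KO liver of mouse A lay within the WT range, and the log2 fold change was -0.57 (SE 0.20, edgeR adjusted p 0.558). With no filter on low counts both were called, with edgeR adjusted p of 0.0646 for Aldoc and 0.0558 for Slc1a2, in a fit that called 1.63% of its genes.

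For the other 7 members tested in liver the 95% interval of the difference included 0. Aldh1l1 ran from 1143 to 1593 CPM in WT and from 1145 to 1406 CPM in KO (log2 fold change -0.072, SE 0.17, 95% interval -0.45 to 0.31). Vim was at 24.7, 22.2 and 40.5 CPM in WT and 32.2, 24.8 and 43.7 CPM in KO, with overlap (log2 fold change 0.20, 95% interval -0.45 to 0.85). Gdf10 was at 5.15, 6.98 and 6.64 CPM in WT and 6.87, 8.28 and 8.81 CPM in KO, which overlapped through mouse A. Gfap and Slc1a3 were at or below 1.02 and 1.25 CPM in every liver library, and Gja1 ran from 3.55 to 8.2 CPM. Aqp4 was at 11.9, 2.11 and 1.08 CPM in WT and 1.39, 5.82 and 0.574 CPM in KO, so that mice B and C stood above the others in both genotypes. Gfap in those same 2 livers was at 0.36 and 0.504 CPM, within the range of the other livers.

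**Figure D5:**
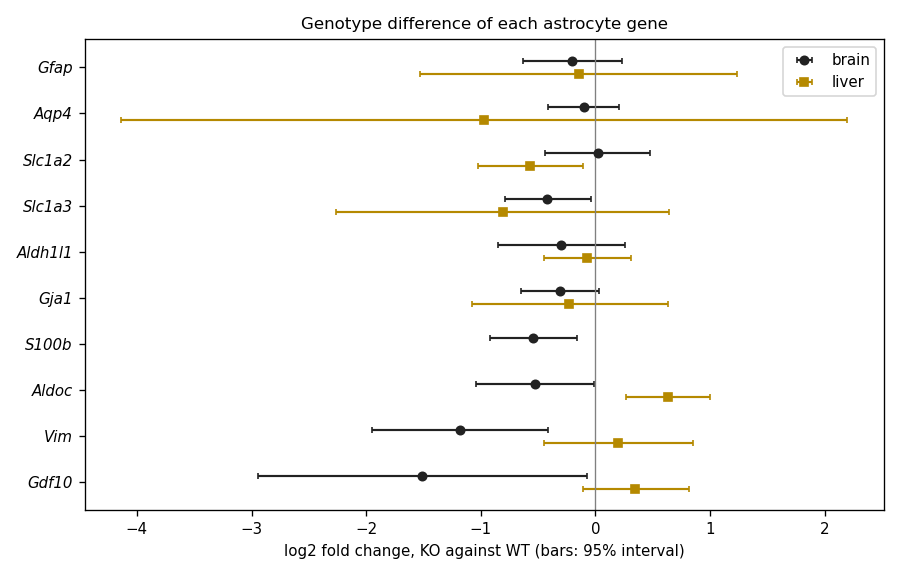
Log2 fold change of KO against WT for each astrocyte gene, black circles for brain and yellow squares for liver, with bars for the 95% interval; S100b was not tested in liver. The brain interval lies wholly below 0 for Slc1a3, S100b, Aldoc, Vim and Gdf10, and for Aldoc the liver interval (0.27 to 1.0) lies above 0.

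To test whether the genotype difference itself differed between the tissues, the liver effect minus the brain effect was fitted over all 12 libraries. None of the 10 genes was called (0 of 10, edgeR, where 0% of 18944 genes were called). An unadjusted p under 0.05 was reached by 3, all with the higher effect in liver (5.51% of all genes). For Aldoc the difference was 1.2 (SE 0.31, edgeR adjusted p 0.203), and pairing both organs of an animal through a block for the mouse gave 0.15. The call of Aldoc depended on the test, with an adjusted p of 0.044 in DESeq2, which called 2.01% of its genes, and of 0.0204 in edgeR with no filter, which called 0.531%. For Vim the difference was 1.42 (SE 0.49, edgeR adjusted p 0.348) and for Gdf10 1.90 (SE 0.75, edgeR adjusted p 0.409). The mitochondrial share of the libraries, given above, also moved in opposite directions in the tissues, and with those transcripts left out the differences were 1.19 for Aldoc, 1.42 for Vim and 1.89 for Gdf10. The liver and brain values of these genes thus pointed apart without passing the threshold over all genes.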

How the data were processed

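Brains and livers of 6 mice were profiled by total RNA-seq. The authors made stranded libraries (SMARTer Stranded Total RNA-Seq), trimmed single-end reads with Trimmomatic, aligned them to mm10 with STAR 2.7.3a and counted exonic reads with featureCounts set to reverse strand. The deposited values are raw counts per gene, with no normalisation. Exon counts sum over all transcripts of a gene.

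Counts were fitted with edgeR 4.0.16 in R 4.3.3: TMM, filterByExpr, robust quasi-likelihood F test, Benjamini-Hochberg over all genes tested, call at an adjusted p under 0.1. KO was compared with WT within each tissue, WT brain with WT liver and the difference between tissues over all 12 libraries. CPM use the TMM-scaled library size, within each tissue or, between tissues, over all 12 libraries, SEs come from the F statistic and 95% intervals from its degrees of freedom. At most 3 counts were treated as the floor, and floors cover counting error only. The labels do not say that the samples of a group came from separate litters or days, so p-values measure the spread between these mice. The study gives its mouse RNA-seq as 3 pairs. The labels do not say which KO mouse was paired with which WT mouse, so genotypes were compared unpaired. Alternatives were DESeq2 1.42.0, RLE size factors, no filter, a Y-linked covariate, mitochondrial genes left out, all 12 libraries in 1 fit and each mouse left out.

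Organs of 1 mouse carry the same letter in the labels, which pairs them by animal. Over 12574 genes, deviations from the group mean correlated between both organs of a mouse at Pearson r from -0.067 (mouse B) to 0.118 (mouse E).

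The members and lists were chosen with earlier results of these data known. The 10 genes and Mettl5 are named throughout, and, from a list a result turns on, up to 3 genes of smallest p without overlap and its first 3; 1 gene that this rule names is not reported here. Positions are those of mm10, promoter sequences those of RefSeq, GRCm38.p6, and 54435 genes had the same start and end in GENCODE.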

Additional observations from a re-analysis of the deposited data

How the results depend on the processing

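The counts of called genes among the 10 were 0 in brain, 0 in liver, 9 between WT tissues and 0 for the difference between tissues. Over 48 alternative counts, 43 stayed within 1.5 times of these and 5 were higher: in brain 1 with DESeq2 and 3 with no filter on low counts, in liver 2 with no filter, and for the difference between tissues 1 with DESeq2 and 1 with no filter. The cause of these differences was not tested. With the mouse as a replicate block, 9 genes were called between WT tissues and 0 for the difference between tissues, so the pairing changed no call.

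In brain, the median of the 10 genes ran from -0.57 to -0.23 over all alternatives. Leaving out each mouse in turn gave log2 fold changes from -2.30 to -0.89 for Gdf10, -1.53 to -0.82 for Vim, -0.32 to 0.047 for Gfap, -0.16 to 0.20 for Slc1a2 and -0.98 to 0.26 for Kcnj10, the last 3 with a change of sign. With no filter, Slc1a2 was at -0.0037. In liver the same ranges were -0.17 to 0.069 for Aldh1l1, -2.38 to 0.70 for Aqp4, -0.77 to 0.25 for Gfap and -0.032 to 0.52 for Vim, each with a change of sign. Those of Aldoc kept their sign in both tissues. The median in liver ran from -0.16 to 0.069 over all alternatives.

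Each group has 3 mice. S100b in liver could not be compared, and Gfap and Slc1a3 there rest on at most 22 counts a library. DESeq2 gave no adjusted p to Aqp4 in the fits over both tissues.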

Other observations

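The other astrocyte lists were also read in liver. Of the 30 astrocyte identity genes, 15 passed the filter on low counts there, 9 higher and 6 lower in KO, with 0 called (edgeR), 0 at an unadjusted p under 0.05 and a median log2 fold change of 0.046. Of the 34 reactive astrocyte genes, 26 passed it, 10 higher and 16 lower, with 0 called and a median of -0.029. At an unadjusted p under 0.05 were 1 of them that was higher (2.76% of all liver genes) and 2 that were lower (4.57%). The hepatic stellate cell list, whose cells share Gfap and Vim with astrocytes in rodents, had 8 of 8 genes tested, 6 higher and 2 lower, with 0 called, 3 higher at an unadjusted p under 0.05 (2.76% of all liver genes) and a median of 0.30. Its summed level ran from 286 to 344 CPM in the WT livers and from 326 to 420 CPM in the KO livers, which overlapped.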
